A study of Mus musculus with 36 samples.

Results

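Gene and repeat transcripts of MSR-dCas9-Activator mouse embryonic fibroblasts (MEF) were compared with those of the MSR-dCas9-Control line 24 h after doxycycline removal. The comparison was chosen by time point and holds 6 of the 36 libraries of the time course, 3 per line, with all 54842 genes and 1561 repeat families of the count table. Both lines are hygromycin-selected populations that carry PiggyBac transgenes with a doxycycline-inducible dCas9, and both express the guide against the major satellite repeat (MSR) from the same plasmid. dCas9 is a Cas9 that binds DNA without cleaving it. In the Activator line it is fused to VPR, a strong transcriptional activator, and in the Control line it has no effector domain. The Activator cells received doxycycline at 10 ng/ml for 6 h and the Control cells at 10 ng/ml for 24 h, and both were then washed and kept in fresh medium for 24 h. Effector and length of doxycycline exposure therefore cannot be told apart. The study's methods describe the libraries of a group as biological replicates, and the labels number them without naming cultures. The 12 h and the uninduced libraries of both lines are set beside the 24 h values where a change over time is described.

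The major satellite repeats fill the pericentric heterochromatin of mouse chromosomes, and the minor satellite repeats lie in the centromeres. HP1 proteins, methylation of histone H3 at lysine 9 and DNA methylation keep this chromatin compact and its transcription low. In mitosis the flanking centromere carries the kinetochore, to which spindle microtubules attach. The comparison at 24 h asks which transcripts still differed a day after the inducer had been removed.

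The libraries held between 35583026 and 59951252 counts on genes and repeats, of which 27482733 to 46024294 were on genes. Normalised counts are gene or repeat counts scaled with TMM factors to a common library size, and a log2 fold change is Activator over Control. A gene was called when its adjusted p-value from edgeR's quasi-likelihood test (Benjamini-Hochberg) was under 0.05, its log2 fold change beyond 1 and its mean above 100 normalised counts. For a repeat family the limits were an adjusted p-value under 0.05 in the same test and a fold change beyond 0.5 on the log2 scale. Of 15 fibroblast marker genes 14 could be tested. Their summed level was 986339 to 1094200 normalised counts in Control and 476144 to 862573 in Activator libraries, with 6 genes called lower and 0 higher. Most of these counts were of Col1a1, Col1a2 and Fn1. Postn (3.23), Lum (2.16) and Fap (2.21) passed the adjusted p-value as higher, but their means were under the limit of 100. The marker sums of 8 other cell types stayed at or below 0.00832% of the gene counts in every library. In RNA from whole cultures, fewer cells of a kind and less RNA per cell cannot be told apart.

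Activator replicate 2 stood apart from replicates 1 and 3. Over the genes called higher at 24 h its median log2 difference from the Control mean was 1.54, against 2.23 and 2.15 in replicates 1 and 3. Over the genes called lower it was -0.70, against -1.56 and -1.39. It was the Activator library nearest to Control for 929 of the 1025 higher and 874 of the 937 lower genes. At the end of induction replicate 2 was also the nearest to Control over the higher genes (1.26, against 1.77 and 1.90). Over the lower genes it was then at -0.53, against -0.94 and -0.92. At 12 h replicate 2 was not nearer to Control for the higher genes (2.60, against 2.41 and 2.55) but was for the lower genes (-1.35, against -1.85 and -1.83). Results that rest on it are given with and without it.

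GSAT_MM, the family of the major satellite repeats and the target of the guide, remained high in Activator cells at 24 h. The Control libraries held 1938, 1879 and 1521 normalised counts and the Activator libraries 496481, 456726 and 1543230. Every Activator library was far above every Control library, and replicate 3 was the highest. The log2 fold change was 8.60 (SE 0.86, edgeR adjusted p = 1.71e-08) and 8.84 without Activator replicate 2. GSAT_MM made up 0.905%, 0.935% and 2.68% of all counts in the Activator libraries and 0.00354% ± 0.000583 (SD, n = 3) in the Control libraries. At 12 h the log2 fold change had been 9.22, and the change to 24 h of -0.62 (SE 0.88, edgeR adjusted p = 0.765) did not pass the test. Before induction it was 1.20.

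SYNREP_MM, the minor satellite family of the centromeres, was also higher. It stood at 76.9, 73.6 and 68.8 normalised counts in Control and at 58433, 10695 and 33658 in Activator libraries, a log2 fold change of 8.75 (SE 0.46, edgeR adjusted p = 2.91e-13). Replicate 2 was the lowest Activator library for both satellites, and the groups did not overlap for either. Without it the SYNREP_MM value was 9.15. The 12 h value of 9.65 and the 24 h value differed by -0.90 (SE 0.54, edgeR adjusted p = 0.396). Uninduced cells already differed by 2.90 (edgeR adjusted p = 0.000413). Of the 7 satellite families tested 3 were higher and 2 lower. Hprt, a housekeeping gene, differed by -0.33 (edgeR adjusted p = 0.0168) and was not called.

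**Figure D1:**
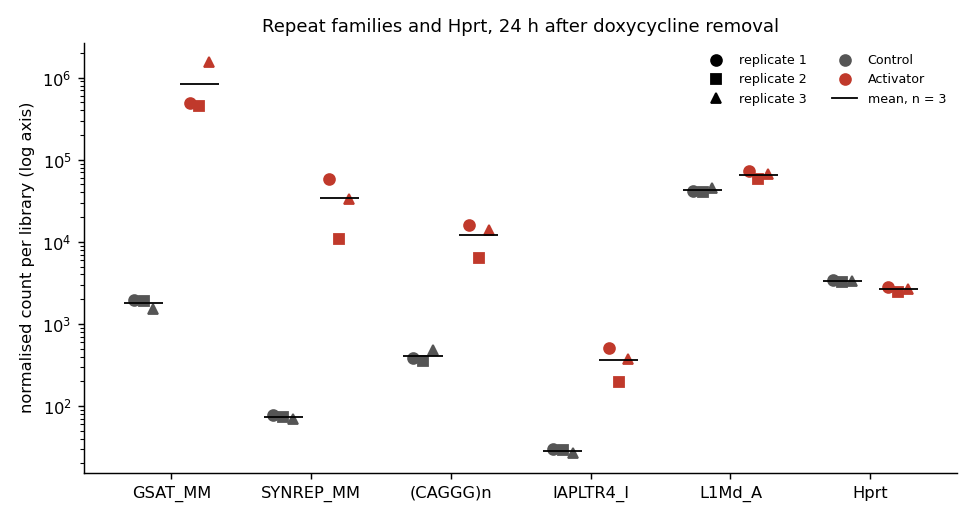
Normalised counts on a log axis of 5 repeat families and the gene Hprt in each of the 6 libraries at 24 h, with 1 point per library and a bar at the group mean. GSAT_MM and SYNREP_MM lie between 10694.6 and 1543230 counts in the Activator libraries and at or below 1938 in the Control libraries.

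Outside the satellites more repeat families were higher than lower. Of 1492 repeat families tested 467 (31.3%) were called, 433 (29%) higher and 34 (2.28%) lower, with a median log2 fold change of 0.24. Without Activator replicate 2 the counts were 522 higher (34.9%) and 49 lower (3.28%). With scaling to the mitochondrially encoded mRNAs in place of TMM, 218 were higher and 54 lower and the median was -0.02, so the direction of the typical family depends on the scale. Repeats took 23.1% ± 0.288 (SD, n = 3) of the counts in Control and 28.5% ± 1.43 (SD, n = 3) in Activator libraries, with no overlap (p = 0.1 in a two-sided exact permutation test, which cannot give a smaller value with 3 libraries per group).

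The long terminal repeat (LTR) elements, the remains of retroviruses, made up most of the families called higher. Of 662 LTR families 301 were higher and 8 lower (median 0.47), and 148 and 9 with mitochondrial scaling (median 0.21). Among them the ERVK group had 149 higher and 1 lower of 279, ERV1 had 68 and 6 of 138, ERVL had 40 and 1 of 109, and ERVL-MaLR had 22 and 0 of 104. With mitochondrial scaling 78 ERVK, 37 ERV1, 12 ERVL and 9 ERVL-MaLR families were higher, and the ERVL-MaLR median of 0.26 became -0.01. Intracisternal A particles (IAP), active ERVK elements that DNA methylation and H3K9 methylation keep silent in most cells, had 21 families higher out of 25 tested and 0 lower (median log2 fold change 1.12), and 13 higher with mitochondrial scaling. The internal sequence IAPLTR4_I stood at 29.9, 29.2 and 26.5 normalised counts in Control and 509.9, 194 and 375 in Activator libraries, a log2 fold change of 3.63. ERVB5_1-I_MM-int, another internal sequence of the ERVK kind, rose from 92.3, 83.4 and 92.6 to 2133, 623 and 1168 normalised counts between the lines, a log2 fold change of 3.79.

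LINE-1 elements are retrotransposons that copy themselves through RNA. L1Md_A, a young LINE-1 family, held 41901, 40938 and 45532 normalised counts in Control and 72976, 57512 and 67552 in Activator libraries. The groups did not overlap, and the log2 fold change was 0.63 (SE 0.13, edgeR adjusted p = 2.46e-05). With mitochondrial scaling it was 0.37 (edgeR adjusted p = 0.257) and no longer called. All 6 L1Md families were called higher, against 1 of 6 with mitochondrial scaling. Among all 158 families of LINE elements 18 rose and 2 fell (median 0.10), but 5 and 4 with that scaling (median -0.16). Without Activator replicate 2, 28 rose and 3 fell. SINE elements, short retrotransposons, had 4 higher and 0 lower of 37.

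Families of tRNA genes and their copies were higher in 42 of 56 cases and lower in 1 (median 1.50), and 34 and 1 were called with mitochondrial scaling. Only 23 of the 56 averaged above 100 counts. Their summed level was 12896, 13494 and 12842 normalised counts in Control and 23956, 14498 and 19203 in Activator libraries. In the class of simple repeats 28 of 282 families rose and 9 fell (median 0.04), but 14 and 14 with mitochondrial scaling (median -0.22). Among DNA transposons the numbers were 22 and 6 of 198 (median -0.07, or 0.02 with DESeq2 size factors), and with mitochondrial scaling 6 and 15 (median -0.33), so the direction of both classes depends on the scale. Next to the satellites, and for families that averaged 100 counts or more, the simple repeat (CAGGG)n had a large rise. Its Control libraries held 387, 350.2 and 486 normalised counts and its Activator libraries 16209, 6358 and 14115, a log2 fold change of 4.90 (SE 0.24). Falls were smaller. UCON12A, an old conserved element, fell from 127, 145 and 178 to 35.6, 108 and 48.9 between the lines (-1.27 on the log2 scale, -1.74 without Activator replicate 2). Eulor9A fell by 1.06, Eulor6B by 0.80, MER127 by 0.78 and (TTCTG)n by 0.71 on the same scale. A family is counted as a whole, so transcripts that start in a repeat and repeats inside introns of genes add to the same count.

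**Figure D2:**
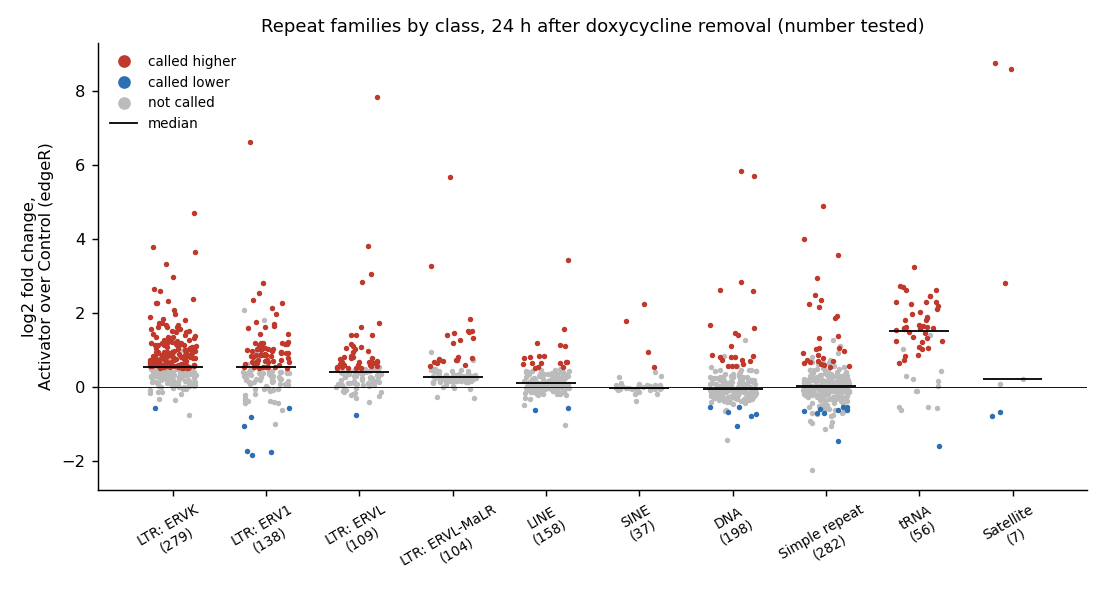
Log2 fold change (Activator over Control) of each repeat family at 24 h, by class, with 1 point per family, a line at the class median and called families in colour. LTR families (median 0.47) and tRNA families (median 1.50) lie mostly above 0, while DNA transposons (median -0.07) and simple repeats (median 0.04) are centred near it.

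Among genes, 1962 of 28542 tested (6.87%) were called at 24 h, 1025 higher (3.59%) and 937 lower (3.28%). By the adjusted p-value alone 17880 (62.6%) passed, 10382 (36.4%) higher and 7498 (26.3%) lower. Of the 13582 genes with a mean above 100 normalised counts, 7.55% were called higher and 6.9% lower, and their median was -0.24. The balance of higher and lower genes depended on the scale and on replicate 2. Mitochondrial scaling gave 691 higher and 2160 lower genes (2.48% and 7.75% of 27874 tested, 10.2% in all) and moved the median of all genes from 0.08 to -0.21. DESeq2 gave 1136 and 698, and TMM factors from the filtered genes alone 942 and 1168. Without Activator replicate 2 there were 1180 higher (3.99%) and 1625 lower (5.5%), 9.49% in all, and 1000 of the 1025 higher and 923 of the 937 lower genes were called again.

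The share of genes called in each direction went with the level of expression. Of 6921 genes above 1000 normalised counts in Control cells 92 (1.33%) were higher and 545 (7.87%) lower. Between 100 and 1000 counts 361 (6.07%) of 5951 were higher and 6.59% lower. The other higher genes had a Control mean below 100, with 44 below 1, 108 from 1 to 10 and 420 from 10 to 100. Such a gene could pass the limit on the mean mostly by being higher in Activator cells, so shares of higher genes are given above 100 counts in Control.

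At equal depth the Activator libraries held counts of more genes than the Control libraries. After scaling each library to 27376846 gene counts, 19829, 19818 and 19622 genes of 54842 had at least 10 counts in the Control libraries and 24565, 22501.5 and 23409 in the Activator libraries. The means were 19756 ± 116 and 23492 ± 1034 (SD, n = 3 each) with no overlap (p = 0.1, two-sided exact permutation test, again its lower limit). Before induction the means were 19182 and 19656. Protein-coding genes accounted for 12824 of the Control and 15129 of the Activator mean. Olfactory receptor genes, a large family normally expressed in nasal sensory neurons, are a set with no known role in fibroblasts. Of 1407 such genes 12.97 to 16.0 reached 10 counts in the Control libraries and 141, 84.8 and 115 in the Activator libraries. Their summed level was 638, 617 and 616 normalised counts in Control and 17124, 5948 and 13207 in Activator libraries. Replicate 2 was the lowest Activator library in each of these measures and still above every Control library.

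**Figure D3:**
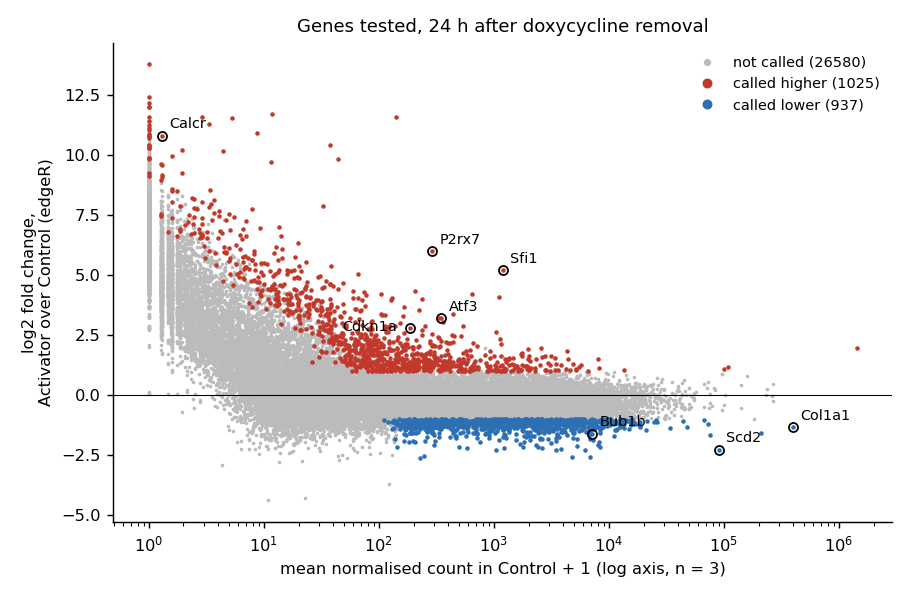
Log2 fold change (Activator over Control) at 24 h against mean normalised count on a log axis, with 1 point per gene tested and called genes in colour. The 545 lower genes with a Control mean above 1000 outnumber the 92 higher ones there, and the largest rises belong to genes with few counts in Control cells.

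The largest rises were of genes with no counts in any Control library. A floor of 3 counts over the 3 Control libraries together gave the lower bounds. On the floor, Gm10715 (chr9:3036877-3038316, GRCm38) was at least 1467-fold higher and Gm10721 (chr9:3013140-3014344) at least 480.1-fold. Both overlap Gm26870, a long noncoding RNA gene at chr9:3000282-3038313 that was also called higher, so reads may be split among them. In the Activator libraries Gm10715 held 742, 828 and 2921 normalised counts and Gm10721 341, 282 and 840. Replicate 3 was thus the highest, as for GSAT_MM. How far their reads are shared with the satellite family was not tested. Olfr1419, an olfactory receptor gene, was at least 673-fold higher, Fgf6, a fibroblast growth factor of muscle, at least 501-fold, and Lrrc36 at least 497-fold. Olfr157 was at least 329-fold higher, Xylt1, a xylosyltransferase that starts glycosaminoglycan chains, at least 229.9-fold, and Ifnab, a type I interferon gene, at least 216-fold. The bound of Olfr859 was 163-fold. With mitochondrial scaling Olfr157, Xylt1 and Ifnab fell under the limit on the mean, and so did Olfr859 in the 6 libraries alone. Calcr, the calcitonin receptor, had 1 Control count in all and 1141, 423 and 902 normalised counts in the Activator libraries, a ratio of 2439 (95% exact interval 437 to 96381, counting error only).

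With Gm, Rik and clone symbols left out, the largest gains in absolute counts were in other genes. Sfi1, a centrosome protein gene at chr11:3131850-3193463, stood at 1241, 1224 and 1108 normalised counts in Control and 59915, 22199 and 52832 in Activator libraries (5.22, SE 0.27). It overlaps the antisense gene Gm11399, and whether the counting used strand is not given in the sources used here. P2rx7, an ATP-gated ion channel, went from 299, 308 and 263 to 19917, 13430.4 and 21658 (6.00, SE 0.22). Tor1aip2 of the nuclear envelope (1.52), Atp6v1h of the lysosomal proton pump (1.83) and Brd2, a reader of acetylated histones (1.04), followed. Brd2 lay at the fold limit and was not called with mitochondrial scaling (0.77), without Activator replicate 1 (0.96) or without Activator replicate 3 (0.97).

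The largest falls included genes of lipid synthesis and the fibroblast matrix. Usp29, an imprinted ubiquitin peptidase gene, had the largest fall of the genes named (-2.61) but differed by -2.51 already before induction, as did Atg4a, an autophagy protease (-2.19 at 24 h and -1.59 before). Frmd4b, a scaffold protein, held 7419.9, 7528 and 5599.6 normalised counts in Control and 559, 3530.3 and 642 in Activator libraries (-2.58, or -3.15 without replicate 2). Medag fell by 2.30 and Gm43921, which lies inside Col1a2 on the same strand, by 2.60 on the log2 scale. The microRNA gene Mir5114 (-2.29) lies inside Scd2 on the same strand, and their reads cannot be told apart. Scd2, a stearoyl-CoA desaturase, was a large fall, from 91875, 90118 and 89289 to 11860.5, 34277 and 13939 (-2.27, SE 0.25). It was also the third largest loss in counts with Gm, Rik and clone symbols left out. Elovl6, which lengthens fatty acids, fell by 2.24. In the same ranking the collagen genes Col1a1 and Col1a2 lost the most counts. Col1a1 stood at 410214, 419643 and 377551 in Control and 113266, 247896 and 131458 in Activator libraries (-1.33), and Col1a2 differed by -1.57. Cxcl12, a chemokine of stromal cells (-1.65), and Tubb5, a beta tubulin (-1.22), came next. For all of these except Usp29 replicate 2 was the Activator library nearest to Control.

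A larger share of the genes near the pericentric end of the autosomes was called higher. Mouse chromosomes have their centromere at the start of the assembly's coordinates, which begin 3 Mb in. Among genes with 100 to 1000 counts in Control cells 20 of 139 within 5 Mb of the start were higher (14.4%) and 335 of 5645 farther away (5.93%). Above 1000 counts 10 of 154 near the start (6.49%) and 79 of 6509 elsewhere (1.21%) were higher. These shares are a description without a test, and neighbouring or overlapping genes are not independent. By kind of gene, 24 of 64 snoRNA genes with a mean above 100 were lower.

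Many genes of mitosis were lower. Of 50 genes of mitosis and the spindle assembly checkpoint 18 were called lower and 0 higher, and 43 passed the adjusted p-value as lower, with a median of -0.82. Of all genes tested 3.28% were called lower, and 6.9% of those with a mean above 100. Called higher were 6.07% of genes with 100 to 1000 Control counts and 1.33% of those above 1000. These shares are to be set beside the lists that follow as well. At an unadjusted p-value under 0.05, 44 of the mitosis genes were lower and 0 higher, and DESeq2 called 16 lower and 0 higher. The medians of the Activator libraries were -0.68, -0.98 and -0.83, so replicate 2 was here the farthest from Control. Without it 18 genes were again lower (median -0.80), and with mitochondrial scaling 28 (median -1.06). The 12 h median was -0.46 and the uninduced median -0.16.

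Bub1b encodes BubR1, a kinase-like protein of the checkpoint that delays anaphase until chromosomes are attached. It held 7596, 7231 and 6588 normalised counts in Control and 2346, 2437 and 2247 in Activator libraries, a log2 fold change of -1.60 (SE 0.10, edgeR adjusted p = 3.21e-13). All Activator libraries lay within a narrow range far below Control. Its difference grew from -0.92 at 12 h (change -0.68, SE 0.14, edgeR adjusted p = 0.00136). Aspm, a spindle pole protein, held 8496, 8596 and 7935 and 2809, 3572 and 2862 (-1.44, SE 0.08). Sgo2a, a shugoshin that protects centromeric cohesin, held 2311, 2397 and 2370.4 and 806, 1071 and 809 (-1.40, SE 0.11). For Sgo2a the difference had been -2.25 at 12 h, a change of 0.85 (SE 0.15, edgeR adjusted p = 0.000385).

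Promoters of cell cycle genes often carry CCAAT boxes, which NF-Y binds, and a TTTGAA element, through which the DREAM complex represses them in resting cells. The 250 bases before the RefSeq start (GRCm38.p6, plus strand for each) are shown for Bub1b and Aspm, the members with the largest falls. Matches to CCAAT, read on either strand, are in capitals.
Bub1b, chr2:118597961-118598210: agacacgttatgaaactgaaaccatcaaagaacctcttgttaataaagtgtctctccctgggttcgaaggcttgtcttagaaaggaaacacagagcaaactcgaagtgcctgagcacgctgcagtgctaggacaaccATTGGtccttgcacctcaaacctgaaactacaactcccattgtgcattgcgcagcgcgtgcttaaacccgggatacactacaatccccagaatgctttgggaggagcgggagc
Aspm, chr1:139454523-139454772: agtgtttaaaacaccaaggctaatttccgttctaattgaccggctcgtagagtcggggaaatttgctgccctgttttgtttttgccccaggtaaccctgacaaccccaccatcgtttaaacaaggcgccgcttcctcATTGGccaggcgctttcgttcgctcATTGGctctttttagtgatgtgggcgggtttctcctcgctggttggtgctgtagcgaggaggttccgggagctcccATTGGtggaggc
The Bub1b window has a CCAAT match 113 bases before the start. The Aspm window has matches 113, 88 and 12 bases before the start. Neither window has TTTGAA on either strand, and no match overlaps another. Sgo2a has more than 1 RefSeq start, and its windows are not shown. The window at chr1:57985090-57985339 has 1 CCAAT match and that at chr1:57995724-57995973 has 0, both without TTTGAA. RefSeq gives a promoter for 43 of the mitosis genes, of which 33 (76.7%) had CCAAT and 16 (37.2%) TTTGAA. Of all 32851 RefSeq promoters 33.8% and 16.0% had them. A match describes the sequence and not a bound factor.

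Other groups of the cell cycle also had lower genes. Of 37 kinetochore and centromere genes 10 were lower and 0 higher (median -0.54), with Knl1, the scaffold of the outer kinetochore, at -1.52 besides Bub1b. Of 51 DNA replication genes 10 were lower and 0 higher (median -0.57, and -0.15 at 12 h). Gins1 of the replicative helicase differed by -1.49 and Pold3, a subunit of polymerase delta, by -1.21. Cohesin and condensin had 3 lower and 0 higher of 23 (median -0.59), among them the cohesin acetyltransferase Esco2 (-1.39) and Ncapg2 of condensin II (-1.13). Of 30 tested cyclins, CDKs and CDK inhibitors of G1 and S, 8 were lower, among them the CDK inhibitor Cdkn2c (-1.47) and the transcription factor E2f2 (-1.32), and 1, Cdkn1a, was higher. Without Activator replicate 1 only 3 of them were lower, and 5 without Activator replicate 3. With mitochondrial scaling 12 kinetochore, 17 replication, 8 cohesin and condensin and 12 G1 and S genes were lower. DESeq2 called fewer lower, with 7 kinetochore, 7 replication, 2 cohesin and condensin and 4 G1 and S genes. The cohesin and condensin share is then near the 6.9% of all genes with a mean above 100.

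Replication-dependent histone genes, which are transcribed in S phase and whose proteins wrap new DNA, had 26 of 54 lower and 0 higher (median -0.99), and 36 lower with mitochondrial scaling. DESeq2 called 22 of these genes lower. The linker histone genes Hist1h1b and Hist1h1a fell by 2.08 and 2.03 on the log2 scale. Hist1h1b held 8674, 8583 and 7005 normalised counts in Control and 1427, 2639 and 1681 in Activator libraries. Within the Control group replicate 1 had a list median of -0.97 against the other Control libraries, and replicates 2 and 3 had 0.31 and 0.54, so the Control libraries differed more in this list than in the others. The Activator medians were -1.59, -0.68 and -0.86.

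Of the genes of DNA repair some were lower. Of 41 genes of homologous recombination and the Fanconi anaemia pathway, which repair breaks and crosslinks with a sister template, 9 were lower and 0 higher (median -0.70), and 18 lower with mitochondrial scaling. DESeq2 called 7 of these genes lower. Fancb of the Fanconi core complex held 975, 974 and 1007 normalised counts in Control and 346, 427 and 348 in Activator libraries (-1.40). For Fancb the difference was smaller than at 12 h by 0.95 (edgeR adjusted p = 0.00101). Of 29 genes of end joining and damage signalling 5 were lower and 1 higher (median -0.62). The checkpoint kinase gene Chek2 differed by -1.33 and Mdc1, which gathers repair factors at breaks, by -1.11. Rad9a, a subunit of the checkpoint clamp that lies within 5 Mb of the start of chromosome 19, was higher by 1.04, and not called with mitochondrial scaling (0.77), without Activator replicate 1 (0.97) or without Activator replicate 3 (0.93). The number of lower genes in this list was 12 with mitochondrial scaling, 8 without Activator replicate 2, 2 without Activator replicate 1 and 3 without Control replicate 3 or Activator replicate 3. It was 2 with DESeq2, a share near the 6.9% of all genes with a mean above 100.

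The p53 targets moved in both directions. Of 34 listed, 33 were tested, with 4 higher, 3 lower and a median of 0.08 that became -0.20 with mitochondrial scaling. Cdkn1a, which encodes the CDK inhibitor p21, held 187, 174 and 200.2 normalised counts in Control and 1575, 726 and 1717 in Activator libraries. Replicate 2 lay between the groups but above every Control library, and the log2 fold change was 2.81 (SE 0.24, edgeR adjusted p = 1.02e-10). At 12 h it had been 2.79. Sertad1, a regulator of CDK4 and E2F (1.53), Trp53inp1, named after its value was seen (1.38), and Gadd45a, a growth arrest gene (1.40), were also higher. The lower members were Pidd1 of the PIDDosome (-1.31), the apoptosome gene Apaf1 (-1.21) and the damage sensor Ddb2 (-1.03). Ddb2 was not called without Control replicate 1 (-0.92), Activator replicate 1 (-0.91) or Activator replicate 3 (-0.95), nor by DESeq2 (-0.95). The 36 tested cell death regulators had 3 lower and 0 higher (median -0.38), a lower share near the 6.9% of all genes with a mean above 100. The survival factor Bcl2 was among the lower genes (-1.30). In this list 5 were lower without Activator replicate 2 and 7 with mitochondrial scaling.

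Cdkn1a has the largest rise of the called members, and its promoter is shown with matches to CATG, the core of a p53 half-site and its own reverse complement, in capitals. It covers the 250 bases before the first RefSeq start, on the plus strand of GRCm38.p6.
Cdkn1a, chr17:29090729-29090978: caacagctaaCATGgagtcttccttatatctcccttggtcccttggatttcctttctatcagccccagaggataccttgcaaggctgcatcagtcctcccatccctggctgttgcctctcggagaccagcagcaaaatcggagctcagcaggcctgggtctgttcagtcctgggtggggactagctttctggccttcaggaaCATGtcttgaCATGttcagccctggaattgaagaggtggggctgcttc
Matches begin 240, 48 and 38 bases before the start, with no overlap. The window before the other RefSeq start of Cdkn1a has 0. CATG is short, and 53.9% of all RefSeq promoters have it, and 10 of the 25 p53 targets with a promoter there (40%).

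Interferon-stimulated genes, which interferons switch on against viruses, differed most in Activator replicate 2. Of 41 listed, 39 were tested, with 10 called higher, 1 lower and a median of 2.07, and 35 passed the adjusted p-value as higher. Most of these genes have few counts in Control cells, so that 18 of 39 exceed the limit on the mean. Of all genes past that limit, 99.1% of those with 1 to 10 Control counts were called higher. With 10 to 100 Control counts it was 75.4%, with a median of 2.07. Calls of interferon genes with so few Control counts are therefore given without weight. The medians of the Activator libraries were 1.09, 2.99 and 1.85, and replicate 2 was the highest for 36 of 39 genes. Their summed level was 15808 to 17165 normalised counts in Control and 17683, 49882 and 24321 in Activator libraries. Without replicate 2, 4 genes were called higher and 1 lower, and the median was 1.72. Replicate 2 of the Activator line had a list median of 0.53 before induction, 0.92 at 3 h, 2.63 at 6 h and 3.19 at 12 h, above replicates 1 and 3 at each of these times. The part of replicate 2 in the list's result was not tested beyond leaving it out.

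Ifit1, which binds foreign RNA caps, held 10.3, 8.34 and 7.94 normalised counts in Control and 44.0, 1185 and 264 in Activator libraries (4.99, SE 0.98, edgeR adjusted p = 0.000125). Oasl2 of the OAS family held 29.9, 48.6 and 14.1 and 92.1, 2962 and 440.2 (4.46), and Isg15, a ubiquitin-like protein, 54.7, 48.6 and 30.9 and 104, 1306 and 346 (3.31). In all these genes replicate 1 was the lowest Activator library, and it lay above every Control library. Without replicate 2 their log2 fold changes were 4.71, 3.84 and 2.69 (edgeR adjusted p = 0.000586, 0.00275 and 0.00348), but their means fell under 100 counts, as did that of Ifit1 without Activator replicate 3 (4.87). Ifit2 was lower instead (1489.8, 1478 and 1354 in Control and 409, 1083 and 530.4 in Activator libraries, -1.16), and was at -0.91 and not called without Activator replicate 1. Of 22 nucleic acid sensors and adaptors 1 was higher and 0 lower (median -0.24). It was Ddx58, which encodes the RNA sensor RIG-I (1.18, and 0.94 without replicate 2, not called). Without replicate 2, and with mitochondrial scaling, 0 of this list were higher and 2 lower.

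Cytokine genes of the NF-kappaB pathway split. Of 26 listed, 22 were tested, with 3 higher and 1 lower (median 0.39), but 4 and 4 without Activator replicate 2 and 2 and 3 with mitochondrial scaling. Of all genes with a mean above 100, 6.9% were lower. Il6, an inflammatory cytokine, held 21.4, 26.4 and 22.0 normalised counts in Control and 378, 170.4 and 338 in Activator libraries (3.66). Of genes past the limit on the mean with 10 to 100 Control counts, as Il6, 75.4% were called higher. Ptgs2, the inducible cyclooxygenase, held 419, 406 and 506 and 6593, 2111 and 6288 (3.39), and its difference was larger than at 12 h by 1.34 (SE 0.43, edgeR adjusted p = 0.0392). For both, replicate 2 was the lowest Activator library, unlike in the interferon genes. Cxcl1, a neutrophil chemokine, was lower (-1.12), but not called without Control replicate 1 (-0.97) or Activator replicate 1 (-0.93), nor without the replicate number in the model (-1.03, edgeR adjusted p = 0.0789).

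Immediate early genes are switched on within minutes by growth factors and stress. Of 31 tested 10 were higher and 0 lower (median 0.88, and 0.28 at 12 h), and 7 and 0 with mitochondrial scaling (median 0.60). Atf3, a stress-induced transcription factor, held 324, 345 and 377 normalised counts in Control and 3361, 2021 and 4237 in Activator libraries (3.21, SE 0.24). Maff, a small MAF factor, held 380.1, 443 and 712 and 2567, 1959 and 4028 (2.47), 0.90 more than at 12 h (edgeR adjusted p = 0.00451). Among 36 genes of the integrated stress and unfolded protein response 3 were higher and 4 lower (median -0.28), 3 and 6 without Activator replicate 2 and 2 and 7 with mitochondrial scaling. The lower share of all genes with a mean above 100 was 6.9%. Ppp1r15a, which restores translation after stress, was higher (2.33), and the serine pathway enzyme Shmt2 (-1.28) and the factor Atf5 (-1.22) were lower. Of 21 heat shock chaperones 1 was higher and 0 lower, and the median of 0.04 became -0.21 with mitochondrial scaling. Among all genes 6.07% of those with 100 to 1000 Control counts were higher, and 1.33% of those above 1000. Hspa1b, an inducible HSP70, held 61.5, 114 and 127 and 433, 248 and 507 (2.06). Without Activator replicate 3 its mean fell under 100 counts (2.00). It had been at -0.79 at 12 h, a change of 2.86 (SE 0.43, edgeR adjusted p = 7.29e-05).

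Most genes of cholesterol synthesis were lower. Of 24 genes 15 were lower and 0 higher (median -1.37), DESeq2 called 14 lower, and mitochondrial scaling gave 20 lower (median -1.64). Idi1, an isomerase of the isoprenoid steps, held 2500.4, 2526 and 2810.4 normalised counts in Control and 470.1, 852 and 423 in Activator libraries (-2.19, SE 0.20). Also among the 15, and chosen after their values were seen, were the sterol sensor Insig1 (-1.79) and the transcription factor Srebf2 (-1.23). The Activator medians were -1.57, -0.96 and -1.57, with replicate 2 nearest to Control, and 15 genes were called without it. The 12 h median was -0.53, and 5 genes had a larger fall at 24 h than at 12 h by the test of the change.

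Of 39 collagens and extracellular matrix genes 2 were higher and 3 lower (median -0.06, or 0.02 with DESeq2 size factors). Without replicate 2 there were 2 and 11 (median -0.28), and with mitochondrial scaling 2 and 7. The lower share is near the 6.9% of all genes with a mean above 100. Higher were 6.07% of all genes with 100 to 1000 Control counts and 1.33% of those above 1000. These shares are to be set beside the contractile and lysosome lists too. Tnc, a matrix protein of wounds and tumours, held 306, 378 and 385 normalised counts in Control and 1076, 7331 and 1399 in Activator libraries (3.05, or 1.85 without replicate 2, which held most of the Activator counts). Fbln5, an elastic fibre protein, held 243, 274 and 215 and 619.8, 858 and 624 (1.52). Of 26 contractile genes and YAP or SRF targets 25 were tested, with 2 higher and 0 lower (median -0.23), but 1 and 1 without replicate 2 or with mitochondrial scaling. Tagln, an actin-binding protein of smooth muscle, held 60.7, 59.7 and 73.2 and 287, 254 and 332 (2.18). Of genes past the limit on the mean with 10 to 100 Control counts, as Tagln, 75.4% were called higher. Ccn2, a target of YAP, was higher by 1.24, and without replicate 2 by 0.98 (edgeR adjusted p = 0.0701, not called). Without Control replicate 1 it was 1.07 (edgeR adjusted p = 0.0698, not called). The lysosome and autophagy list had 4 higher and 0 lower of 35 (median 0.38), and 2 and 1 with mitochondrial scaling (median 0.14). The higher genes included the proton pump subunits Atp6v1h and Atp6v0d1 (1.64).

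Genes of the heterochromatin machinery were lower where they were called. Of 29 genes of HP1 and of H3K9 or H4K20 methylation 4 were lower and 0 higher (median -0.38). Without Activator replicate 1, 2 were lower, and 9 with mitochondrial scaling. DESeq2 called 3 lower. The members called were Kmt5c, an H4K20 methyltransferase (-1.32), Cbx3, which encodes HP1 gamma (-1.17), Cbx5, which encodes HP1 alpha (-1.11), and the H3K9 methyltransferase Ehmt1 (-1.02). Cbx5 and Ehmt1, like Mbd2 and Hells of the DNA methylation list, were named after their values were seen. Kmt5c held 997, 1099 and 915 normalised counts in Control and 248, 793 and 301 in Activator libraries, so replicate 2 lay close to Control, while Cbx3 held 6268, 6456 and 6005 and 2665, 3094 and 2571. Of 19 genes of DNA methylation 4 were lower and 0 higher (median -0.66), and 7 were lower without Activator replicate 2 and 9 with mitochondrial scaling. With DESeq2, and with its size factors in edgeR, only 2 were lower. The maintenance methyltransferase Dnmt1 held 11277, 10438 and 11307 and 4856, 4977 and 4587 (-1.19), and its partner Uhrf1 differed by -1.12, Mbd2 by -1.05 and the remodeller Hells by -1.07. Mbd2 and Hells lay near the fold limit. Polycomb complexes had 1 lower, Cbx6 (-1.16), and 0 higher of 30 (median -0.35), a share below the 6.9% of all genes with a mean above 100. Without Activator replicate 2, 3 were lower, and 5 with mitochondrial scaling. The nuclear lamina and envelope list had 2 lower, Lmnb1 (-1.30) and Tmpo (-1.10), and 0 higher of 14. Lmnb1 encodes lamin B1.

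Several lists had almost no called genes. Of 36 nucleolar and RNA polymerase I genes 0 were called by edgeR and by DESeq2, with 5 higher and 13 lower at an unadjusted p-value under 0.05 (median -0.12). Of 56 cytosolic ribosomal protein genes 0 were called by either tool, with 21 higher and 1 lower at an unadjusted p-value under 0.05. Their median of 0.25 became 0.00 with mitochondrial scaling, and the Activator libraries differed among themselves (0.64, -0.36 and 0.39). The 13 mitochondrially encoded mRNAs had 0 calls by either tool, with 4 higher and 1 lower at an unadjusted p-value under 0.05. Nuclear-encoded respiratory chain genes had 1 lower of 51, Ndufs7 (2093, 1883 and 1809 normalised counts in Control and 882, 1088 and 909 in Activator libraries), and RNA exosome and ncRNA processing genes 1 lower of 40, Ago1 (-1.01). Both lay at the fold limit and lost the call with DESeq2 and when Control replicate 1 or 3 or Activator replicate 1 or 3 was left out, down to -0.90 for Ndufs7 and -0.89 for Ago1 without Activator replicate 1. Glycolysis had 1 higher of 20, the lactate transporter Slc16a3 (1.31). Of 13 nuclear long noncoding RNAs tested 0 were called by either tool, with 5 higher and 4 lower at an unadjusted p-value under 0.05.

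Genes of the 2-cell stage and methylation-silenced germline genes are nearly silent in fibroblasts, so members could be tested mostly where Activator cells had counts, and their numbers are given without weight. Of 27 listed genes of the 2-cell stage 20 were tested and 0 called by edgeR or DESeq2, with 18 higher and 1 lower at an unadjusted p-value under 0.05. Of 32 germline genes 21 were tested and 2 called higher, of which Stag3 fell under the limit on the mean with mitochondrial scaling. Stag3, the meiotic cohesin subunit, held 16.2, 6.95 and 8.82 normalised counts in Control and 319, 206 and 257 in Activator libraries (4.56), and differed by 2.42 before induction. Tex14 of germ cell bridges held 69.2, 52.8 and 59.1 and 248, 95.1 and 193 (1.53).

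**Figure D4:**
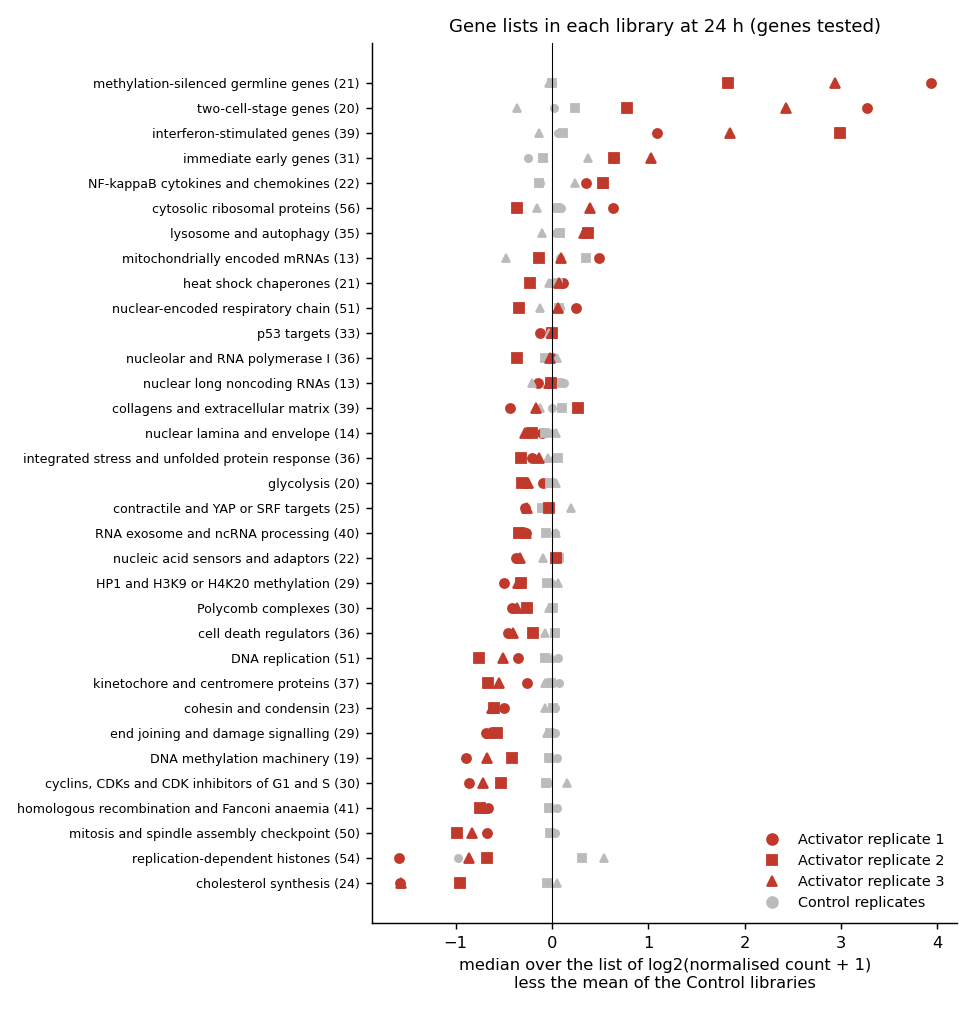
Median log2 difference of each gene list in each of the 6 libraries at 24 h, on log2(normalised count + 1), with the Activator libraries set against the mean of the 3 Control libraries and each Control library against the mean of the other Control libraries. Mitosis medians are -0.68, -0.98 and -0.83 and cholesterol medians -1.57, -0.96 and -1.57 in the Activator libraries, while interferon medians are 1.09, 2.99 and 1.85.

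Fewer genes were called at 24 h than at 12 h, when 4223 of 28542 (14.8%) were called, 1269 higher (4.45%) and 2954 lower (10.3%). Before induction 51 (0.179%) were higher and 6 (0.021%) lower, 0.2% in all. Of the genes higher at 12 h, 924 were also called higher at 24 h, and of those lower at 12 h, 761 were also called lower. In a test of the change itself, the difference between the lines changed for 924 genes (3.24%), with 740 moving up (2.59%) and 184 moving down (0.645%). The test of the change uses the libraries of both times, so the following is a description. Of the 740, 658 had been called lower at 12 h, and 540 of those were not called at 24 h, with 116 still lower. The median of the 740 went from -1.83 to -0.55. Of the 184, 138 had been higher at 12 h and 94 still were, and the median went from 2.31 to 1.07. Leaving out Control replicate 2 gave 595 changed genes in place of 924. Without Activator replicate 2, 540 moved up and 160 down. Mitochondrial scaling gave 1491 up and 27 down, and library sizes without TMM 1064 and 108. The numbers in each direction therefore depend on the scale and on single libraries.

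Among the genes that passed the test of the change, a smaller group passed the limits at 24 h and not at 12 h. Earlier points after induction were not tested. Of the 184 genes that moved down, 18 were called lower at 24 h and not called at 12 h. Of the 740 genes that moved up, 20 were called higher at 24 h and not called at 12 h. Among them, chosen after their values were seen, were Fosl1 of the AP-1 factors (from -0.10 to 2.11), the circadian repressors Nr1d1 (from -0.04 to 1.39) and Nr1d2 (from 0.13 to 1.20), Smad7, an inhibitor of TGF-beta signalling (from 0.07 to 1.43), and Klf2 (from -0.82 to 1.04). Without Activator replicate 2 Klf2 was at 0.74, under the fold limit. By the rule for the largest changes, Has2, which makes hyaluronan, went from -3.34 to -0.19, Hmga2, an architectural chromatin protein, from -3.73 to -0.65, and Apln, the apelin peptide, from -3.32 to -0.28. None of these was called at 24 h. Ccn2 went from -1.78 to 1.24. In the other direction, Notch3 went from 4.63 to 1.24 and Slc17a8, a vesicular glutamate transporter, from 6.74 to 4.05. The mitochondrial ribosomal RNAs mt-Rnr2 and mt-Rnr1 went from 3.87 and 2.69 to 0.02 and -0.08. Their changes passed with all libraries but not without Control replicate 2 (edgeR adjusted p = 0.0622 and 0.131). Ribosomal RNA was depleted before sequencing, and the part of that step in these levels was not tested.

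Among repeat families 763 of 1492 (51.1%) were called at 12 h, 677 higher (45.4%) and 86 lower (5.76%), and the median was 0.45 against 0.24 at 24 h. The change from 12 h to 24 h passed for 9 families (0.603%). MLT1E-int and U5 rose and ERVB7_3-LTR_MM, IAPEy-int, LTRIS2, MamGypLTR1d, RLTR1B-int, RLTR1D2_MM and RLTR6B_Mm fell. Against the difference before induction, 1639 genes (5.74%) had changed at 24 h, 850 upward (2.98%) and 789 downward (2.76%). Of the genes called at 24 h, 32 of the 1025 higher and 5 of the 937 lower were called in the same direction already before induction.

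**Figure D5:**
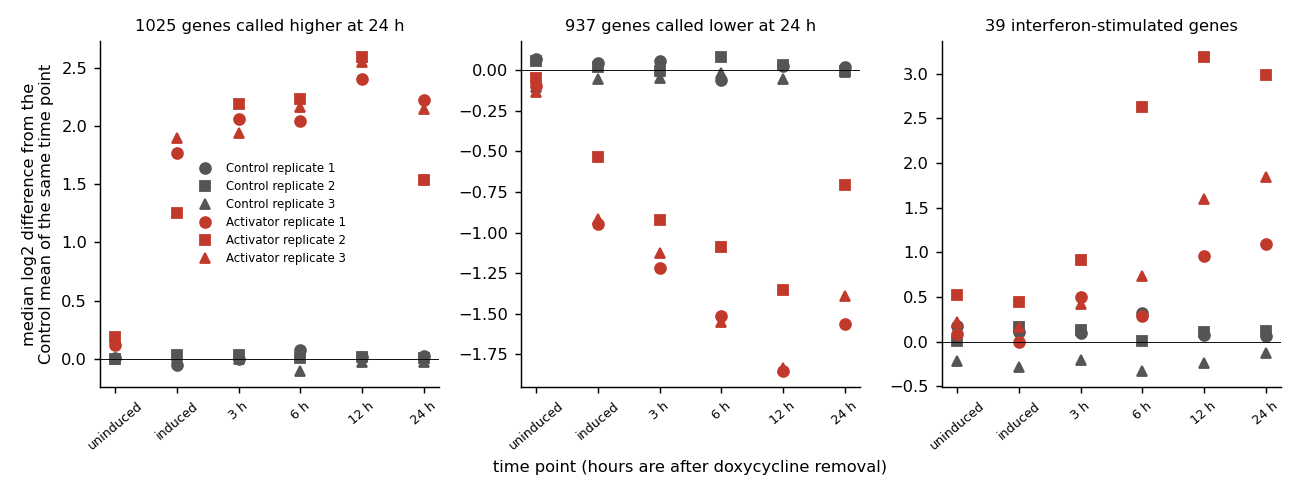
Median log2 difference from the Control mean of the same time point over the 1025 genes called higher and the 937 called lower at 24 h, and over the 39 interferon-stimulated genes tested, in each library from before induction to 24 h. The genes were chosen at 24 h, so the earlier points are a description. Activator replicate 2 at 24 h (1.54 and -0.70) lies nearer to 0 than replicates 1 and 3.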

How the data were processed

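RNA was extracted with TRI Reagent, treated with TURBO DNase, depleted of ribosomal RNA, made into stranded total RNA libraries and sequenced in pairs. The authors used cutadapt for trimming, STAR for alignment (GRCm38) and TEtranscripts for counting, and the deposited values are the resulting counts per gene and per repeat family, whole and not normalised. The annotation release, the strand setting and how reads that match several places were shared are not given in the sources used here. Overlapping and antisense genes are therefore uncertain. Of 54842 genes 54495 matched GENCODE M21, used for positions and gene kinds. 1 unnamed entry, 0.00369% to 0.00452% of a library's counts at 24 h, was left out.

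The 36 libraries were fitted together with edgeR 4.0.16 in R 4.3.3 (TMM, filterByExpr, robust quasi-likelihood), by group and with the replicate number as a block, and contrasts were taken at 24 h, between 24 h and 12 h, and between 24 h and uninduced cells. All 3 replicates of each group were used. Repeat families took library sizes and TMM factors from genes. SE was taken as the size of a log2 fold change over the root of its F statistic. Means of normalised counts for the limit of 100 ran over the 36 libraries. Single shares were compared by exact permutation tests. Library medians used log2(normalised count + 1). Lower bounds used a floor of 3 counts over the Control group, and bounds and intervals cover counting error only. After removing group means, Control and Activator libraries with the same number correlated at 0.127, 0.0248 and 0.116 at 24 h, so the number stays in the model as in the study's design, and no shared culture is read from it.

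Gene lists and repeat classes were chosen with earlier results of these data known. Of the listed genes Ddit3, Atp5o, Aldoa, Dux, Eif1ad2 and Norad were not used here. The text names Hprt, L1Md_A and both satellites; the 5 largest rises and falls of called families averaging 100 counts or more; the 3 largest rises and falls of all called genes and the 8 largest among symbols that are not provisional, where all 3 same-numbered pairs moved alike; the 5 largest gains and losses in counts; up to 2 rises and 2 falls per list (3 and 3 for mitosis, p53 targets and interferon); the 4 largest changes in each direction from 12 h; and promoters of leading mitosis and p53 genes from RefSeq (GRCm38.p6). Provisional symbols, which are Gm numbers and Rik or clone names, were also left out of the gains and losses in counts. Genes outside this rule are said to be so where they stand. A few genes that the rule names are not reported here. Alternatives were DESeq2 1.42.0, its size factors, no TMM, scaling to the mitochondrially encoded mRNAs, other filters, fold limits and library sets, no block, and leaving out each library at 24 h. TMM factors from the filtered genes and the counts of detected genes were added after seeing the data. The fit was tested on simulated counts.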

Additional observations from a re-analysis of the deposited data

Results flagged for a closer look

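Each result here is a difference between the lines that itself differed between 24 h and an earlier time point, in edgeR's test of that change (Benjamini-Hochberg). This held for 924 genes and 9 repeat families from 12 h to 24 h, and for 1639 genes from uninduced cells to 24 h. Among single genes the difference moved upward from 12 h by 3.15 on the log2 scale for Has2 (SE 0.43, edgeR adjusted p = 5.63e-05). It moved upward by 3.09 for Hmga2 (edgeR adjusted p = 6.72e-05), by 3.03 for Apln (edgeR adjusted p = 6.37e-05) and by 3.03 for Ccn2 (edgeR adjusted p = 0.00181). The downward changes were -3.39 for Notch3 (SE 0.51, edgeR adjusted p = 0.000134) and -2.68 for Slc17a8 (edgeR adjusted p = 0.0138). For the mitochondrial ribosomal RNAs they were -3.85 in mt-Rnr2 (SE 1.11, edgeR adjusted p = 0.0217) and -2.77 in mt-Rnr1 (SE 0.91, edgeR adjusted p = 0.042). Neither passed without Control replicate 2 (edgeR adjusted p = 0.0622 and 0.131), Activator replicate 2 (0.0580 and 0.106) or Activator replicate 3 (0.0529 and 0.0752). For mt-Rnr1 this also held without Control replicate 1 (0.0648), Activator replicate 1 (0.0533), TMM (0.0519), filters on low counts (0.0766) or the replicate block (0.112), and with mitochondrial scaling (0.0719). In Has2, Hmga2, Apln and Ccn2, Control replicate 3 was the highest Control library at 24 h. No library at 24 h could be tested as an outlier, since groups of 3 are too small for that.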

How the results depend on the processing

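No called value of a single gene or family changed its sign under the alternatives run. Without filters on low counts 12044 genes were called in place of 1962, 10403 higher and 1641 lower, and 4019 in place of 1639 had changed from uninduced cells. With log2 limits of 2 for genes and 1 for families the counts were 540 genes (517 higher, 23 lower), 216 families (208 higher, 8 lower), 60 genes changed from 12 h and 430 from uninduced cells. Scaling to the mitochondrially encoded mRNAs gave 2160 lower genes, 272 families (218 higher, 54 lower) and 1518 genes changed from 12 h, and L1Md_A was then at 0.37 (edgeR adjusted p = 0.257). A fit of the 6 libraries at 24 h alone gave 12 lower families in place of 34, with 1161 higher and 662 lower genes. On gene counts as denominator the repeat share differed by 9.87 percentage points in place of 5.41, and with 1 count as the limit 8638 more genes were detected in place of 3735. The cause of these shifts was not tested. Without the replicate block 1010 genes were higher and 803 lower (1813 in all), and 682 had changed from 12 h. At 24 h each library correlated best with its own number in the other line, except Activator replicate 2, which did so with Control replicate 3. The share of higher genes among those called was 52.2%, and 61.9% with DESeq2, 62.3% with its size factors, 63.7% in the 6 libraries, 44.6% with TMM after the filter and 24.2% with mitochondrial scaling.

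Leaving out 1 library at a time gave 1455 to 2805 called genes, 910 to 1180 higher, and from 545 lower without Activator replicate 1 to 1625 without Activator replicate 2. Called families numbered 352 to 571, with 331 to 522 higher. Lower families numbered 17 without Activator replicate 3, 21 without Activator replicate 1, 21 without Control replicate 3, 22 without Control replicate 1 and up to 49 without Activator replicate 2. Genes changed from 12 h numbered 595 without Control replicate 2 and up to 1222 without Activator replicate 1. Genes changed from uninduced cells numbered 1130 to 2567, the latter without Activator replicate 2. GSAT_MM ranged from 8.27 to 8.88, SYNREP_MM from 8.33 to 9.15 and L1Md_A from 0.54 to 0.70 on the log2 scale, the repeat share from 4.62 to 6.00 percentage points and detected genes from 3199 to 4231. The GSAT_MM share differed by 1.50 percentage points, and by 0.917 without Activator replicate 3. Of 1507 values of single genes and families under these alternatives 1443 kept their side of the limits and 64 did not. Of 1056 list counts 902 and of 672 class counts 579 lay within 1.5 times the value reported. With 3 libraries per group no exact permutation test can fall below 0.1.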

Other observations

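Genes that lie within 5 Mb of the start of their chromosome and were called higher included neighbours, and those named here were chosen after their values were seen. On chromosome 11 the antisense genes Gm11399 and Gm12735, which overlap or adjoin Sfi1, differed by 7.90 and 7.75 on the log2 scale, Osbp2, an oxysterol binding protein gene, by 5.35, and Tcn2, which carries vitamin B12, by 2.44. On other chromosomes Ccdc170 differed by 4.03 and Camsap3, a microtubule minus-end protein gene, by 3.49. Without Activator replicate 2 these values were 8.24, 8.04, 5.62, 2.54, 4.34 and 3.79. Selenop, which encodes the selenium carrier of plasma, and its neighbour Ccdc152 on chromosome 15 differed by 1.77 and 1.77, and by 1.22 and 1.26 without Activator replicate 2.

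Marker genes of cell types other than fibroblasts had low sums that were in part higher in the Activator libraries. The 10 endothelial markers summed to 177 to 249 normalised counts in Control and to 950 to 2096 in Activator libraries, with 2 of 8 tested called higher. They were Pecam1, an adhesion molecule, with 14.5, 33.3 and 9.70 counts in Control and 1165, 322 and 867 in Activator libraries, and Tek, the angiopoietin receptor (3.05 on the log2 scale). The 12 epithelial markers summed to 103 to 105 and 663 to 968, the 12 macrophage and leukocyte markers to 572 to 586 and 904 to 1649, and the 10 skeletal muscle markers to 623 to 683 and 1008 to 1660, where the sarcomere gene Ttn was called higher (1.28). Of the epithelial counts Grhl2 held 506, 501 and 773 in the Activator libraries and 2.56, 2.78 and 5.29 in Control. Hepatocyte markers summed to 88.9 to 124 and 185 to 353. The sums of neuron markers overlapped between the lines (968 to 1056 and 856 to 1066), as did those of pluripotent cells (2330 to 2636 and 2267 to 3172) and erythroid cells (364 to 480 and 321 to 411). In Control most counts of these sums were of Tubb3, Klf4 and Alas2. The medians of the tested members were 2.69, 3.31 and 2.70. Members with few Control counts could be tested mostly where Activator cells had counts. The globin genes Hba-a1, Hba-a2, Hbb-bs and Hbb-bt had no counts in any of the 6 libraries. In the epithelial, endothelial, macrophage and muscle lists Activator replicate 2 was the lowest Activator library.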
